A study of Mus musculus with 56 samples.

Results

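The comparison described here is Dohh deficiency in regulatory T (Treg) cells: 3 RNA-seq libraries labelled Dohh knockout (KO) against 3 wild-type (WT) libraries, all polarized to Treg cells, out of 56 samples in the series. Every gene with enough reads entered the comparison, which left 13897 of the 47937 genes of the count table. The study deleted Dohh with Cre driven by the CD4 promoter in mice whose Dohh exons 2 to 4 are flanked by loxP sites, on a C57BL/6 background, and its WT mice lacked Cre. CD4-Cre acts in the thymus while thymocytes carry both CD4 and CD8, so the CD8 lineage is also deleted. CD4+ T cells from spleen and lymph nodes of both genotypes, which the study's methods describe as naive while the labels do not, were taken by negative selection and activated with antibodies to CD3 (5 ug/mL) and CD28 (2 ug/mL) in the presence of IL-2 (100 U/mL). The Treg condition added blocking antibodies to IFN-γ and IL-4 (each at 4 ug/mL) together with TGF-β and further IL-2 (each at 10 ng/mL), and RNA was taken on day 4. The labels give no age. The question the comparison addresses is what loss of hypusine synthesis does to the transcriptome of cells driven towards the Treg fate.

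Hypusine is an amino acid that cells make on a single protein, the translation factor eIF5A. Deoxyhypusine synthase (DHPS) moves the aminobutyl group of the polyamine spermidine onto a lysine of eIF5A, and deoxyhypusine hydroxylase (DOHH) then hydroxylates it. Mature eIF5A helps ribosomes through difficult peptide bonds and in translation termination. Treg cells restrain immune responses, and the ones induced from naive CD4+ T cells by TGF-β and IL-2 depend on the transcription factor Foxp3. TH1, TH2 and TH17 cells are the inflammatory counterparts, TH1 cells being led by T-bet (Tbx21) and TH2 cells by GATA3.

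The 6 libraries held 8588300 to 12576933 counts, so that a gene with no read could have had up to 0.226 to 0.365 CPM, the counts of a gene scaled to library size, a limit that covers counting error only. Libraries of a genotype were closer to each other than to the other genotype. Across genes, Pearson's r of log2 CPM was 0.9826 to 0.9891 between WT libraries, 0.9583 to 0.9791 between KO-labelled libraries and 0.8291 to 0.8911 between genotypes. Nothing in the labels says which libraries came from separate animals, so the p-values measure the spread between these libraries only.

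Whole-gene counts of the targeted gene were higher, not lower, in the KO-labelled libraries. Dohh (ENSMUSG00000078440.9, chr10:81384428-81388352 in GRCm38) was at 78.3, 79.8 and 93.4 CPM in the KO-labelled libraries and at 31.5, 41.5 and 40.4 CPM in WT. All 3 KO-labelled libraries lay above all 3 WT libraries, a log2 fold change of 1.15 (SE 0.26, adjusted p = 0.000844), which was 0.97 and under the 2-fold threshold without WT replicate 1. In TH1, TH2 and TH17 libraries of the same table the log2 fold changes of Dohh were 1.43, 1.10 and 0.41, the last not called. Dohh was also higher in Treg libraries labelled Odc KO, where it is not the targeted gene (1.11, adjusted p = 1.49e-05, edgeR). The counts cover the whole gene, so reads of the deleted exons could not be counted apart from those of the remaining exons, and these values cannot check the deletion. The libraries are therefore called KO-labelled throughout. By immunoblot of activated CD4+ T cells, the study reports that loss of DOHH lowered the hypusinated form of eIF5A and left its total unchanged.

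Several cell type markers differed between the groups. Cd4 itself, which marks the cells the study isolated, was at 41.9, 41.8 and 29.1 CPM in KO-labelled and 946, 968 and 909.7 CPM in WT libraries, and Trac, the constant region of the TCR alpha chain, was at 122, 97.7 and 71.7 against 471, 502 and 471 CPM. Cd8a was at 162, 241 and 322 against 11.1, 5.35 and 8.18 CPM, while its partner Cd8b1 was at 11.4, 15.9 and 16.4 against 15.7, 15.8 and 12.5 CPM. The groups did not overlap for Cd4, Trac or Cd8a, and did for Cd8b1. For each list of cell type markers, the CPM of its members were summed in each library. Members are called higher or lower at more than a 2-fold change and an adjusted p below 0.05, which 17.5% and 15.2% of all genes tested met. Of 13 genes in a list for CD4 T cells, 1 (Thy1) was higher, 4 were lower and 8 were not called, and their summed CPM was 4847 to 6362 in KO-labelled and 6266 to 7229 in WT libraries. The groups overlapped in this sum only with Thy1, a surface protein of T cells, which was at 2374, 2173 and 2103 against 589, 670 and 638 CPM: without it the other 12 summed to 2744 to 3988 CPM in KO-labelled and 5628 to 6559 CPM in WT libraries. The γδ T cell list (8 of 8 members higher) summed to 1402 to 1573 CPM in KO-labelled and 27.4 to 55.0 CPM in WT libraries, and the list of CD8 T and NK cell genes (9 of 10 tested higher) to 956 to 1143 against 56.7 to 83.8 CPM. Cd163l1, a scavenger receptor of γδ T cells, was at 0 in all 3 WT libraries. Tcrg-C1, Tcrg-C2 and Tcrg-C3 share 25.4 to 36.2% of their 50-base stretches with one another, so their reads could not all be told apart.

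The myeloid list differed within the KO-labelled group as well as between groups. Its sum was 474 CPM in KO replicate 1, 4799 and 5373 CPM in the other two, and 33.4 to 41.1 CPM in WT, and 15 of 16 members tested were higher (5 of 16 with KO replicate 1 as the only KO-labelled library). Mpo was at 0 in all WT libraries and Itgam is listed at 0 in every library of the table. Megakaryocyte and platelet genes (8 of 9 higher) summed to 73.0 to 267 against 18.4 to 28.7 CPM, and erythroid genes (4 of 6 tested higher) to 5.74 to 21.2 against 1.73 to 1.95 CPM. With KO replicate 1 alone these counts were 5 and 0, and the erythroid count was also 0 without KO replicate 3 and 1 without WT replicate 1, 2 or 3. Basophil and mast cell genes (11 of 13 higher, 1 lower) summed to 232 to 442 against 242 to 297 CPM, where Cyp11a1 made up most of the WT sum and was the member that fell. B cell genes (3 of 8 tested higher, 1 lower) summed to 577 to 860 against 295 to 308 CPM, of which Ighm alone made up 549 to 826 and 275 to 288 CPM while Cr2 was at 0 in these 6 libraries and Igkc is listed at 0 in every library of the table. Xist was above 10 CPM in KO replicates 1 and 2 and WT replicate 1 and below it in the others, so neither group was of a single sex by this gene. KO replicate 2 held both Xist, at 66.4 CPM, and the Y-linked Ddx3y, at 13.2 CPM. In bulk libraries, fewer cells of a type and less RNA per cell cannot be told apart, and the part of other cell types in the results below was not tested.

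**Figure D1:**
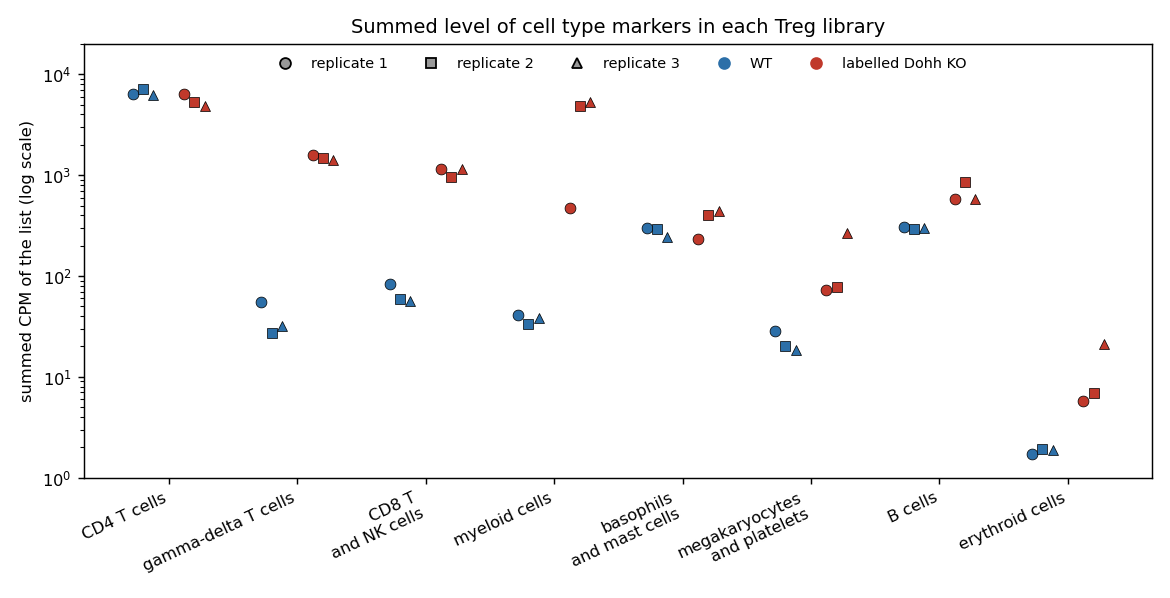
Summed CPM (log axis) of each list of cell type markers in the 6 Treg libraries; each point is a library, with KO-labelled and WT libraries in separate colours. The γδ T cell sums sit at 1402 to 1573 CPM in KO-labelled and at 27.4 to 55.0 CPM in WT libraries, while the myeloid sum of KO replicate 1, 474 CPM, lies below those of the other KO-labelled libraries, 4799 and 5373 CPM.

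A large share of the transcriptome passed the test. A gene was called changed at more than a 2-fold change (log2 beyond 1) and an adjusted p below 0.05 (edgeR, Benjamini-Hochberg over all genes tested). By this rule 4549 genes, 32.7% of those tested, differed between KO-labelled and WT Treg libraries: 2438 were higher (17.5%) and 2111 lower (15.2%). The excess of higher calls was not seen with upper-quartile scaling (2268 and 2317) or in a fit of the 6 libraries alone (2015 and 2030). It was also absent without KO replicate 3 (2041 and 2052), WT replicate 2 (2234 and 2268) or WT replicate 3 (2157 and 2170). The larger changes were more often increases. With genes that had no read in one group set at their bound against 3 counts over that group, 752 genes were higher and 382 lower beyond 8-fold, and 244 were higher and 61 lower beyond 32-fold. Among genes with more than 3 counts in each group these numbers were 464 and 258, and 138 and 28. The median log2 fold change of all genes tested was 0.025. The 3 KO-labelled and 3 WT libraries did not overlap for 9256 genes (66.6%). With KO replicate 1 as the only KO-labelled library, 1523 genes were higher and 1630 lower.

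By the rule for the largest changes (called, a mean of at least 10 CPM in the higher group, no overlap, ranked by fitted log2 fold change), 7 of the 10 genes at the top were members of a marker or pathway list: Cd163l1, Gzmd, Gzme, Cxcl9, Pf4, Mpo and Elane. All 10 had at most 3 reads over the 3 WT libraries, and Cd163l1, Cxcl9, Fcnb, Gzme and Mpo had none, so their fold changes are bounds or ratios to a few reads, and their order among themselves and against genes measured in both groups is not settled. The other three were Hp, Cd177 and Fcnb, which neutrophils and their precursors express. Hp, the haemoglobin scavenger haptoglobin, was at 12.2, 60.8 and 65.1 CPM in KO-labelled and 0.151, 0 and 0 CPM in WT libraries. Like the myeloid sum, it was lowest in KO replicate 1. None of the 10 genes that fell most by the same ranking was in a marker or pathway list, and 7 of them belong to the WT Treg signature described below, Trat1 and Avpr1a included. Over the KO-labelled libraries, Avpr1a had no read and 2610204G07Rik, Abcc8, Fermt1 and Lcn10 had 1 to 3, so the order of the decreases is not settled either. Stra6, the membrane receptor that takes up retinol from its binding protein, was at 0.221, 0.404 and 0 CPM in KO-labelled and 73.1, 79.5 and 76.5 CPM in WT libraries, with a log2 fold change of -8.43 (SE 0.50, adjusted p = 7.03e-11). Trat1, an adaptor associated with the TCR, was at 0.442, 0 and 0.103 against 17.9, 16.7 and 20 CPM. Dnm1, a dynamin of neurons, was at 0.442, 0.101 and 0 against 26.6, 30.1 and 22.8 CPM. Avpr1a, a vasopressin receptor, had no read in any KO-labelled library and 12.7, 11.4 and 14.3 CPM in WT, at least 124-fold lower against the limit of 3 counts over the group. DESeq2 did not call it (log2 fold change -9.41, adjusted p = 0.128).

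More genes of the pathway itself were higher than lower in KO-labelled libraries. Of 21 hypusine and polyamine genes, 10 were higher, 2 lower and 9 not called, with a median log2 fold change of 1.03. Eif5a, the protein that carries hypusine, was at 1821, 2059 and 2389 CPM in KO-labelled and 576, 720.0 and 617 CPM in WT libraries, with a log2 fold change of 1.71 (SE 0.24, adjusted p = 6.99e-06). The groups stood well apart, in a gene that was among the most abundant per length in both. Eif5a2, its paralog, was at 19.4, 16.3 and 15.7 against 9.41, 5.35 and 8.69 CPM, with a log2 fold change of 1.12. Dhps, the first enzyme of hypusine synthesis, was at 45.5, 58.3 and 64.5 against 28.8, 34.6 and 33.7 CPM, a log2 fold change of 0.79 (SE 0.21, adjusted p = 0.00296) that passed on p but not on size.

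Within polyamine synthesis the size of the difference varied by step. Odc1, the decarboxylase that makes putrescine, was at 498, 539.8 and 819.8 CPM in KO-labelled and 406, 419 and 344 CPM in WT libraries, with a log2 fold change of 0.67 that stayed under the threshold. Srm, which makes spermidine from putrescine, was at 173, 235 and 282 against 41.2, 53.1 and 46.4 CPM, a log2 fold change of 2.29 (SE 0.33, adjusted p = 9.75e-06). Sms, which makes spermine, showed a log2 fold change of 0.27 with an adjusted p of 0.109. Amd1, which supplies decarboxylated S-adenosylmethionine to both synthases, rose by 1.03, Mtap, which salvages the methylthioadenosine they release, by 1.76, and Azin1, the antizyme inhibitor that stabilises ODC, by 1.47 on the log2 scale. The 2 that fell were catabolic. Sat1, the spermidine and spermine acetyltransferase, was at 59.5, 72.5 and 75.9 against 179, 189.9 and 161 CPM, and Smox, spermine oxidase, at 57.4, 43.3 and 30.8 against 136, 143 and 138 CPM, log2 fold changes of -1.35 and -1.66. Paox, another catabolic enzyme, showed a log2 fold change of 0.99 in the other direction, just under the threshold.

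The Treg programme was split. Of 32 genes known from Treg cells, 16 were lower, 9 higher and 7 not called, with a median log2 fold change of -0.80. Foxp3 was at 76.9, 179 and 61.6 CPM in KO-labelled and 554, 584 and 589 CPM in WT libraries. The groups did not overlap, KO replicate 2 kept the most, and the log2 fold change was -2.44 (SE 0.46, adjusted p = 0.000200). Nrp1, the neuropilin receptor, fell furthest of the list, from 119, 111 and 149 CPM in WT to 2.54, 7.07 and 3.71 CPM in KO-labelled libraries. Plagl1 (-4.48), Izumo1r, which encodes folate receptor 4 (-3.44), Gpr83 (-3.35), Ccr8 (-2.96), Tnfrsf4, which encodes OX40 (-2.54), Nt5e, which encodes CD73 (-2.05), Ikzf4, which encodes Eos (-1.71), Tnfrsf18, which encodes GITR (-1.46), and Lrrc32, which encodes the TGF-β docking receptor GARP (-1.32), were lower as well. Ctla4, the coinhibitory receptor, was at 327, 323 and 151 against 657, 496 and 521 CPM, a log2 fold change of -1.06 (SE 0.35, adjusted p = 0.0147). Its call rested on single libraries, since the log2 fold change was -0.82 (adjusted p = 0.0753) without KO replicate 3 and -0.98 (adjusted p = 0.0478) without WT replicate 1.

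The 9 members that rose included several that other activated lymphocytes also make. Il10, the suppressive cytokine, was at 91.1, 84.7 and 103 CPM in KO-labelled and 1.81, 0.851 and 0.682 CPM in WT libraries, with a log2 fold change of 6.32 (SE 0.39, adjusted p = 1.03e-10). Gzmb, described with the other granzymes below, and Fgl2, a secreted suppressive molecule at 119.5, 86.6 and 119 against 5.49, 4.13 and 6.14 CPM, moved the same way. Itgae, which encodes the CD103 integrin chain, was at 237, 248 and 119 against 74.5, 34.9 and 52.8 CPM, a log2 fold change of 1.89 (SE 0.31, adjusted p = 3.71e-05). Tigit rose by 1.67, Swap70 by 1.27 and Icos by 1.25 on the log2 scale. Ikzf2, which encodes Helios, was at 38.6, 29.7 and 29.6 against 16, 9.73 and 20.8 CPM, a log2 fold change of 1.06 (SE 0.38, adjusted p = 0.0228). This call did not hold without KO replicate 1 (0.93, adjusted p = 0.0738), WT replicate 1 (1.03, adjusted p = 0.0673) or WT replicate 2 (0.77, adjusted p = 0.126), nor with upper-quartile scaling, where the log2 fold change was just under 1.

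Some Treg genes stood at similar levels. Il2ra, the high-affinity IL-2 receptor chain, was at 1497, 1757 and 1157 CPM in KO-labelled and 1471, 1037 and 1374 CPM in WT libraries, with a log2 fold change of 0.18 (SE 0.29, adjusted p = 0.607). Tgfb1 was at 443, 468 and 427 against 389, 412 and 395 CPM, a log2 fold change of 0.16. The groups overlapped for Il2ra and not for Tgfb1, and neither passed the test. Read per kilobase of exon, Foxp3 stood at the percentile 97.7 of all tested genes in WT and at 82.0 in KO-labelled libraries. Il10 stood at 21.9 in WT and at 94.2 in KO-labelled libraries on the same scale.

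**Figure D2:**
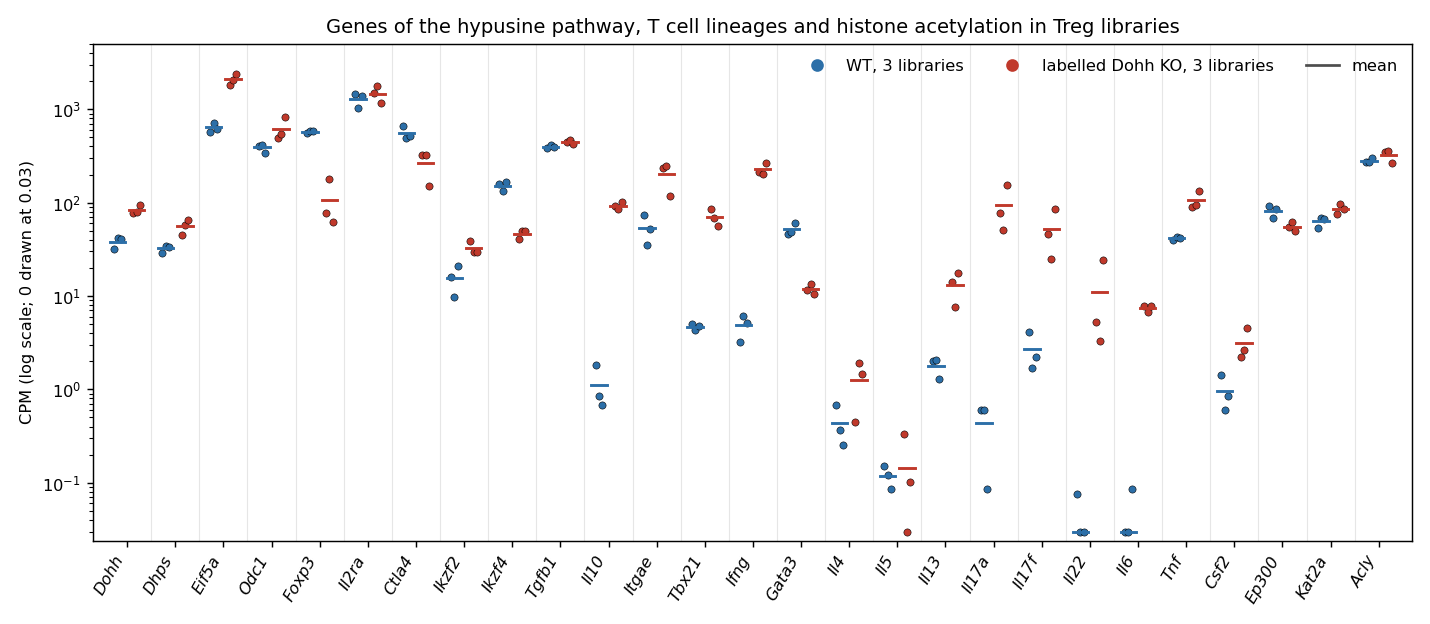
CPM of the core genes in each of the 6 Treg libraries (log axis), with a point for each KO-labelled and WT library. Foxp3 lies at 554 to 589 CPM in WT and 61.6 to 179 CPM in KO-labelled libraries, while Il10, Ifng and Il17a lie above WT in every KO-labelled library.

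Genes chosen without these 6 libraries were followed next. A WT signature of each subset was taken from the WT libraries of the Odc table of the same series: up to 100 genes higher in that subset than in each of the other three. Of the 86 Treg signature genes tested here, 61 were lower in KO-labelled Treg libraries, 4 higher and 21 not called, with a median log2 fold change of -2.87. Over all genes tested, 15.2% were lower and 17.5% higher. Of 91 TH1 signature genes, 45 were higher and 10 lower (median 2.16, or 1.95 with genes absent from a group set at their bound). Of 88 TH17 signature genes, 44 were higher and 18 lower (median 1.45), and of 82 TH2 signature genes, 25 were higher and 12 lower (median 1.15). For TH2 the median was 0.20 with 27 genes that had no read in a group set at their bound. Genes that reach the test only because they are high in WT Treg cells could hardly rise, and those absent from WT could hardly fall, so the counts describe these genes and carry no test.

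**Figure D3:**
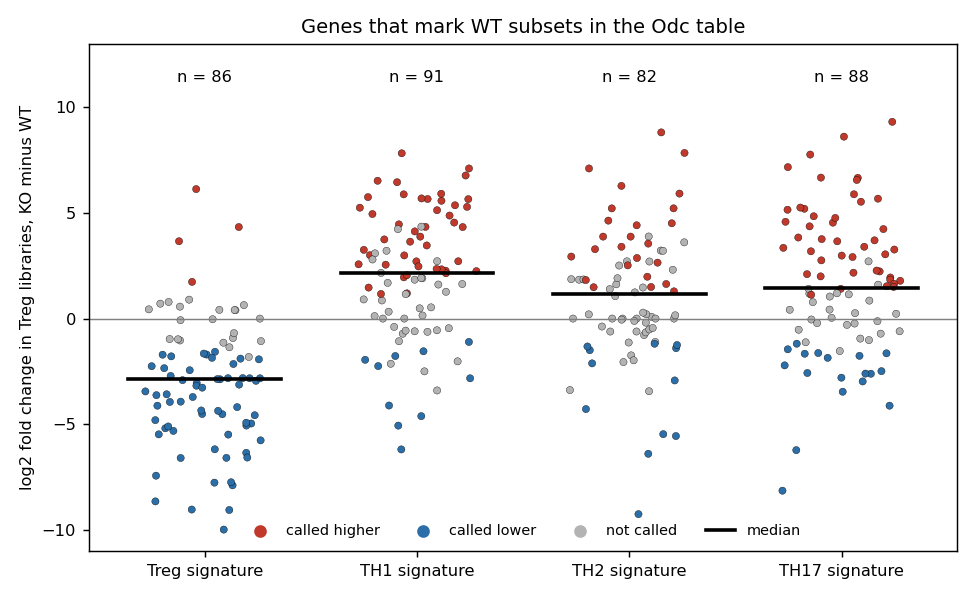
Log2 fold change, KO-labelled over WT, of each tested gene of the 4 WT subset signatures, with the median of each. The thin horizontal line marks no change. The Treg signature centres on -2.87 and the TH1 signature on 2.16.

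Lineage factors of the other subsets moved in different directions. Tbx21, which encodes the TH1 factor T-bet, was at 84.4, 69 and 55.7 CPM in KO-labelled and 4.97, 4.38 and 4.77 CPM in WT libraries, with a log2 fold change of 3.88 (SE 0.37, adjusted p = 4.35e-08). Eomes, a related T-box factor of cytotoxic cells, was at 16.7, 13.7 and 32.5 against 1.43, 0.973 and 1.53 CPM. Gata3, the TH2 factor, was at 11.6, 13.4 and 10.5 against 46.2, 48.5 and 60 CPM, a log2 fold change of -2.12 (SE 0.23, adjusted p = 2.20e-07). Rora, a nuclear receptor of TH17 cells, fell by 1.96 on the log2 scale. Tbx21 thus stood higher, and Gata3 lower, in all 3 KO-labelled libraries than in any WT library.

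The cytokines of these subsets were mostly higher. Ifng was at 213, 205 and 267 CPM in KO-labelled and 3.24, 6.08 and 5.20 CPM in WT libraries, with a log2 fold change of 5.58 (SE 0.53, adjusted p = 5.61e-08). Il17a was at 76.9, 50.3 and 156 against 0.602, 0.608 and 0.0852 CPM, a log2 fold change of 7.76 (SE 0.75, adjusted p = 1.01e-07), and Il17f at 46.5, 25.1 and 85.7 against 4.14, 1.70 and 2.22 CPM, a log2 fold change of 4.24 (SE 0.49, adjusted p = 8.74e-07). Both IL-17 genes were highest in KO replicate 3. Il22, made by TH17 and γδ T cells, was at 5.30, 3.33 and 24.1 CPM in KO-labelled libraries and had 1 read in all WT libraries together, a ratio of 365 (65.6 to 14436) by counting error. Il6 was at 7.73, 6.66 and 7.83 CPM against 1 WT read, a ratio of 246 (44.1 to 9716). Il13 was at 14, 7.57 and 17.6 against 2.03, 2.07 and 1.28 CPM, a log2 fold change of 2.87 (SE 0.37, adjusted p = 2.31e-06). Il5 was near the detection limit in both groups, with no more than 0.331 CPM in any library.

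Other cytokine differences were smaller or less stable. Tnf was at 89.6, 94.3 and 133 CPM in KO-labelled and 40, 43 and 41.8 CPM in WT libraries, with a log2 fold change of 1.35 (SE 0.32, adjusted p = 0.00128). Il4 was at 0.442, 1.92 and 1.44 against 0.677, 0.365 and 0.256 CPM, a log2 fold change of 1.49 (SE 0.55, adjusted p = 0.0258). It was not called without KO replicate 2 (1.02), KO replicate 3 (1.35), WT replicate 2 (1.35) or WT replicate 3 (1.15). Csf2, which encodes GM-CSF, was at 2.21, 2.63 and 4.54 against 1.43, 0.608 and 0.852 CPM, a log2 fold change of 1.64 (SE 0.65, adjusted p = 0.0389). Its call was also lost without KO replicate 2 (1.69), KO replicate 3 (1.22), WT replicate 2 (1.38) or WT replicate 3 (1.48). Il4 did not exceed 1.92 CPM and Csf2 did not exceed 4.54 CPM in any of the 6 libraries.

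By list, 14 of 21 tested TH1 genes were higher and 1 lower (median log2 fold change 1.52). The chemokines Ccl3 (4.74), Ccl4 (3.41) and Xcl1 (4.33) rose with Ifng. Stat4, which relays the IL-12 signal, was the one that fell (-1.56), a call lost without KO replicate 2 (-1.46) or KO replicate 3 (-1.34). Of 24 TH17 genes, 12 were higher and 6 lower (median 1.04). Those that fell included Ccr6, the receptor that guides TH17 cells to mucosa, at 0.994, 0.707 and 0.515 against 43.6, 33.6 and 46.7 CPM, and both chains of the IL-6 receptor, Il6ra (-3.91) and Il6st (-1.90). Of 20 tested TH2 genes, 8 were higher and 5 lower (median 0.35, or -0.30 with KO replicate 1 as the only KO-labelled library). Il1rl1, the IL-33 receptor, was at 30.8, 36.8 and 47.4 against 0.753, 0.122 and 1.02 CPM, and Il24 at 51.4, 45.2 and 100.1 against 4.97, 4.01 and 2.98 CPM, while Maf (-1.63), Ecm1 (-2.08) and Gfi1 (-1.44) fell. The γδ T cell sum and the CD8 T and NK cell sum, 1402 to 1573 and 956 to 1143 CPM in KO-labelled libraries, moved with these lists, and their part in them was not tested.

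**Figure D4:**
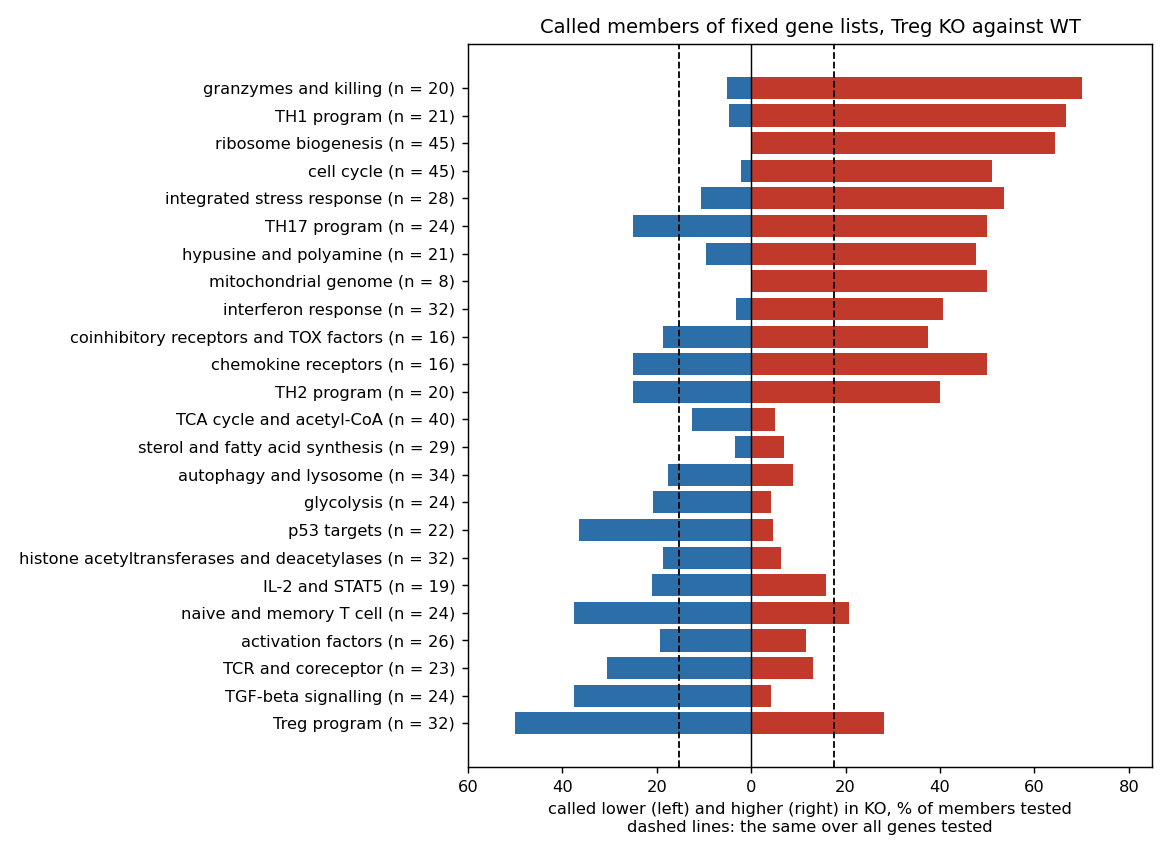
Share of the tested members of each list called lower (bars to the left) and higher (bars to the right) in KO-labelled Treg libraries, in percent, with dashed lines at the shares over all genes tested, 15.2% and 17.5%. Ribosome biogenesis (29 of 45 higher, none of 45 lower) and TGF-β signalling (9 of 24 lower, 1 higher) lean in opposite directions.

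Granzymes and other killing genes had the highest median log2 fold change of the pathway lists. Of 20 members tested, 14 were higher and 1 lower, with a median log2 fold change of 3.09 (2.16 with members absent from WT set at their bound). Gzmb, the serine protease with which killer cells start apoptosis in their targets, was at 5614, 5054 and 5844 CPM in KO-labelled and 31.3, 15.8 and 19.1 CPM in WT libraries, with a log2 fold change of 7.96 (SE 0.53, adjusted p = 2.81e-10). Per kilobase of exon it stood at the percentile 76.5 of tested genes in WT and at 99.97 in KO-labelled libraries. Gzma was at 547, 454 and 389 against 2.33, 1.09 and 2.22 CPM, and Prf1, the pore former through which granzymes enter cells, at 183, 171 and 104 against 2.93, 1.82 and 3.92 CPM. Nkg7, a granule membrane protein, rose by 3.75, Srgn, the granule proteoglycan serglycin, by 1.84 and Fasl by 1.89 on the log2 scale. For each of these genes every KO-labelled library lay above every WT library. Serpinb6b was the member that fell (-1.16). Its call was lost without any of KO replicates 1, 2 or 3 (-1.27, -1.18 and -1.12) or WT replicate 2 (-1.07).

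Gzmb is the last gene of a run of related proteases on chromosome 14, and the whole run was examined after these values were seen. Between positions 55941451 and 56262260 (GRCm38) the annotation holds 15 protein-coding genes, granzymes and mast cell proteases. Of these, 12 were tested and all 12 were higher in KO-labelled libraries (over all genes, 17.5% were). Several had few or no reads in WT Treg libraries, so they could be tested through the groups where they are high and could hardly be called lower, and the count carries no test. Cma2, Mcpt9 and Gzmn were not tested, and Gzmn is listed at 0 in all 6 libraries. Gzmc was at 1542, 975 and 1519 CPM in KO-labelled and 7.53, 5.84 and 5.62 CPM in WT libraries, and Mcpt1, a mast cell protease of mucosa, at 544, 1445 and 1368 against 5.27, 2.92 and 3.58 CPM. Mcpt2 was at 207, 689.9 and 695 against 2.93, 0.973 and 1.79 CPM and Ctsg, the cathepsin of neutrophil granules, at 6.08, 25.6 and 42.7 against 0.376, 0 and 0 CPM. Gzmb was close to even across the 3 KO-labelled libraries and Gzmc was lowest in KO replicate 2, whereas Mcpt1, Mcpt2 and Ctsg were lowest in KO replicate 1, as the myeloid sum was.

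Gzmd and Gzme are neighbours in this run. Gzmd was at 60.4, 42.7 and 56.8 CPM in KO-labelled libraries and had 1 read in all WT libraries together, a ratio of 1765 (317 to 69705) by counting error. Gzme was at 24.2, 17.1 and 25.2 CPM with no read in WT, at least 244-fold higher. Their transcripts are 90.4% identical, and 21.7% of the 50-base stretches of Gzmd and 20.6% of those of Gzme occur in another granzyme of the run, so reads may have been split between them. No such stretch of Gzmb is shared. The 250 bases before each start site, from RefSeq (GRCm38.p6, minus strand), are printed for these 2 genes and for Gzmb because Gzmd and Gzme are the neighbours with shared sequence and Gzmb had the highest CPM of the run in KO-labelled libraries. Capitals mark matches to 2 motifs on either strand, TGTGGT, which RUNX factors recognise (ACCACA on the reverse strand), and TGANTCA, which AP-1 recognises.
Gzmd, chr14:56132594-56132843: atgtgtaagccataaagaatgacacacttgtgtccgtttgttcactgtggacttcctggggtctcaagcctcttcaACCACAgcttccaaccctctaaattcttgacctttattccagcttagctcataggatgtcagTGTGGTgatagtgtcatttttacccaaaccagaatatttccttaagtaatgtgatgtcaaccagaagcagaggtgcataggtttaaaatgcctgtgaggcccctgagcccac
Gzme, chr14:56120626-56120875: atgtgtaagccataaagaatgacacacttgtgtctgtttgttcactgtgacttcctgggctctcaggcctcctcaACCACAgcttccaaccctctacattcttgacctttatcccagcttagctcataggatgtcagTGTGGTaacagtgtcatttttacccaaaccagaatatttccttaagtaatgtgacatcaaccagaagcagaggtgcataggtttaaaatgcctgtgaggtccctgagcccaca
Gzmb, chr14:56262335-56262584: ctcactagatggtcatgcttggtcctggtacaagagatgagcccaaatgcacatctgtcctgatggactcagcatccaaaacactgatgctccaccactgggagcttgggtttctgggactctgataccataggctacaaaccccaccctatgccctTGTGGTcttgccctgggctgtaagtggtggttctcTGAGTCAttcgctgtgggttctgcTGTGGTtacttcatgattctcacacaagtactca
The Gzmd and Gzme windows are identical in 238 of 251 alignment columns (94.8%). Each of the 3 windows holds TGTGGT at 2 places, and Gzmb also holds 1 AP-1 match. Of 32851 promoters of this length, 4614 hold TGTGGT and 2217 (6.75%) TGANTCA at least once. TTCNNNGAA, the STAT motif, and TCACACC, a T-box motif, were not found in these windows and occur in 7.02% and 3.33% of promoters. A match describes letters in the window and is not a site of binding.

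Genes of naive T cells were lower more often than higher. Of 24 naive and memory T cell genes, 9 were lower and 5 higher (median log2 fold change -0.43). Ccr7, the chemokine receptor that brings T cells to lymph nodes, was at 192, 168 and 139.9 CPM in KO-labelled and 1375, 1436 and 1145 CPM in WT libraries, and S1pr1, needed to leave lymph nodes, at 19.7, 18.1 and 7.11 against 134, 113 and 129.9 CPM. The transcription factors that keep T cells quiescent fell with them: Bach2 (-3.47), Klf2 (-3.05), Lef1 (-3.01) and Tcf7 (-2.59). Among those that rose, Prdm1 (2.71), Zeb2 (2.80) and Id2 (2.61) encode factors of effector differentiation. Cd44, Cd69 and Il7r were not called.

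Chemokine receptors showed 8 increases and 4 decreases among 16 tested genes. Ccr2, the receptor of inflammatory sites, rose by 4.93 and Cxcr6 by 4.71 on the log2 scale. Of 16 coinhibitory receptor and TOX genes tested, 6 were higher and 3 lower. Havcr2, which encodes TIM-3, was at 35.4, 41.5 and 55.9 CPM in KO-labelled and 0.978, 0.973 and 0.256 CPM in WT libraries, and Lag3 at 417, 384 and 208 against 86.8, 64.1 and 66 CPM. Tox, which supports the exhausted state, moved against these receptors at 1.99, 3.33 and 2.16 against 23.2, 23.3 and 31.1 CPM. Pdcd1, which encodes PD-1, was not called (0.69, adjusted p = 0.0416).

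TGF-β and IL-2, the cytokines of this culture condition, were each followed by a list. Of 24 genes of TGF-β signalling, 9 were lower, 1 higher and 14 not called (median log2 fold change -0.80). Smad3, which carries the signal to the nucleus, was at 10.7, 10.5 and 5.36 CPM in KO-labelled and 46.3, 30.4 and 39.8 CPM in WT libraries, and Tgfbr1, the type I receptor, at 14, 26.4 and 24.7 against 77.4, 50.2 and 74.9 CPM. The inhibitors Smad6 (-3.14), Smad7 (-1.22), Ski (-1.07) and Skil (-1.31), several of them TGF-β targets themselves, fell too. Smad2, Smad4 and Tgfbr2 were not called. Itgae, another TGF-β target, was the member that rose. Of 19 IL-2 and STAT5 genes tested, 4 were lower and 3 higher (median -0.34). These shares, 21.1% and 15.8%, lay near the 15.2% and 17.5% of all genes tested, so the list as a whole did not stand out. Stat5a was at 91.6, 90.9 and 84.1 against 247, 240.0 and 277 CPM and Stat5b at 149, 139 and 113 against 406, 321 and 419 CPM, while Socs1, an inhibitor of the pathway, rose by 1.49 on the log2 scale. Il2rg is listed at 0 in every library of the table.

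TCR genes fell more often than they rose. Of 23 genes of the TCR and its coreceptors, 7 were lower and 3 higher (median log2 fold change -0.58). Cd5, a negative regulator of the TCR, was at 58.1, 45.8 and 23.3 CPM in KO-labelled and 527, 552 and 499 CPM in WT libraries, and Zbtb7b, which encodes the CD4 lineage factor ThPOK, at 25.3, 30.9 and 26.6 against 137, 135 and 145 CPM. Cd28, the costimulatory receptor, fell by 2.01 and Cd6 by 2.26 on the log2 scale. The CD3 chains Cd3e, Cd3d, Cd3g and Cd247 were not called, with log2 fold changes from -0.21 (Cd247) to 0.57 (Cd3g). Thy1, present on T cells and on other lineages, rose by 1.81. Of 26 activation factors tested, 5 were lower, Nr4a1 furthest (-3.06), and 3 higher, with Batf3 at 146, 115 and 102 against 8.43, 8.39 and 7.67 CPM. The shares of this list, 19.2% lower and 11.5% higher, lay near the 15.2% and 17.5% of all genes tested.

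Genes of ribosome biogenesis and the cell cycle were higher far more often than lower. Of 45 ribosome biogenesis genes, 29 were higher and none of the 45 lower (median log2 fold change 1.24). With KO replicate 1 as the only KO-labelled library, 20 were higher. Nhp2 and Gar1, proteins of the H/ACA particles that guide pseudouridine synthesis, rose by 1.98 and 1.91, and Mrto4, an assembly factor of the large subunit, by 1.92 on the log2 scale. Nop56, a core protein of the box C/D particles, was at 269, 297 and 376 CPM in KO-labelled and 78.8, 96.5 and 84.7 CPM in WT libraries. The 29 members that rose had log2 fold changes of 1.03 to 1.98. Of 45 cell cycle genes tested, 23 were higher and 1, the inhibitor Cdkn1b (-1.22), was lower (median 1.10). The 3 largest log2 fold changes were of genes at a few CPM: Cdkn2b, which encodes an inhibitor of the G1 kinases, was at 2.98, 4.04 and 3.71 against 0.151, 0.243 and 0.0852 CPM and Ccnd1, which encodes cyclin D1, at 3.20, 4.14 and 8.35 against 0.376, 0 and 0.426 CPM. Next came Rrm2, a subunit of ribonucleotide reductase, at 439, 463 and 498 against 71.2, 84.7 and 93.8 CPM, and other replication genes rose as well, such as Mcm2, of the replicative helicase, at 222, 265 and 255 against 53.4, 58.8 and 60.3 CPM. Cdkn2a, which encodes other inhibitors and had the largest fitted fold change of these, was at 4.20, 3.64 and 7.63 against 0, 0 and 0.256 CPM. With 3 reads over the WT libraries, its ratio was 57.2 (19.6 to 278) by counting error, so the order of these 3 genes is not settled. The mitotic genes Mki67, Top2a and Ccnb1 were not called.

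Stress programmes differed from each other. Of 28 genes of the integrated stress response tested, 15 were higher and 3 lower, or 5 lower without KO replicate 1 (median log2 fold change 1.08). Slc7a11, the cystine transporter, was at 3.54, 16.4 and 41.2 CPM in KO-labelled and 0.226, 0.122 and 0.0852 CPM in WT libraries, Asns, asparagine synthetase, rose by 2.09, and Atf4, the factor that drives the response, by 1.11. Ddit3, which encodes the pro-apoptotic factor CHOP, fell by 1.51 on the log2 scale. Of 22 p53 targets, 8 were lower and 1 higher (median -0.29), among them Plk2 (-2.56), Fas (-2.0) and Sesn1 (-1.93), whereas Cdkn1a and Mdm2, the best known targets, were not called. Of 32 interferon response genes tested, 13 were higher and 1 lower, and 7 were higher with KO replicate 1 alone. Cxcl10 was at 2.10, 11.6 and 12.5 against 0.0753, 0 and 0.341 CPM and Cxcl9 at 0.994, 23.4 and 11.5 CPM with no read in WT.

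In the lists for the TCA cycle and for chromatin most genes were not called. The same holds for all genes tested, of which 17.5% were higher and 15.2% lower. Of 40 genes of the TCA cycle and acetyl-CoA supply tested, 2 were higher, 5 lower and 33 not called (median log2 fold change 0.16). Acss1, 1 of the 2 that were higher (1.03), was not called without KO replicate 2 (0.89), KO replicate 3 (0.99) or WT replicate 2 (0.82). The same held with upper-quartile scaling (0.96). Idh3a, a subunit of isocitrate dehydrogenase, rose by 1.49, while Pdk2 (-2.75), a kinase that shuts off pyruvate dehydrogenase, and Glud1 (-1.71), glutamate dehydrogenase, fell. Acly, which makes acetyl-CoA in the cytosol, was at 349, 358 and 263 CPM in KO-labelled and 270.0, 269 and 303 CPM in WT libraries, with a log2 fold change of 0.20 (SE 0.23, adjusted p = 0.466). The groups overlapped. Of 32 histone acetyltransferase and deacetylase genes, 2 were higher, Hat1 (1.38) and Naa50 (1.49), and 6 lower, with Hdac11 (-3.74), Hdac7 (-1.68) and Kat2b (-1.66) furthest. Ep300, which encodes the acetyltransferase p300, was at 54.5, 62.6 and 49.1 against 92, 68.1 and 84.7 CPM (-0.56, adjusted p = 0.0583), and Kat2a, which encodes GCN5, at 74.8, 95.9 and 85.6 against 53.5, 68.6 and 66.3 CPM (0.45, adjusted p = 0.0585).

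Glycolysis showed 5 decreases and 1 increase among 24 genes, with Eno2, the enolase of neurons, at 1.66, 1.72 and 0.722 CPM in KO-labelled and 22.6, 24.3 and 27.9 CPM in WT libraries. The increase, Slc16a1, was not called without KO replicate 3 (0.81) or WT replicate 2 (0.95), nor with upper-quartile scaling (0.99). Aldoc, which fell, lost its call without KO replicate 2 (-1.69) or 3 (-1.29) or WT replicate 1 (-1.73), 2 (-1.57) or 3 (-1.69). The main glycolytic genes of lymphocytes Gapdh, Pkm, Ldha and Hk2 were not called. Sterol and fatty acid synthesis held 2 increases and 1 decrease among 29 tested genes, with Me1, malic enzyme, rising by 3.18. Of 34 autophagy and lysosome genes tested, 3 were higher (5 without KO replicate 1) and 6 lower, including Ulk1 (-1.62), the kinase that starts autophagy, and Map1lc3a (-1.77). The called shares of these 3 lists lay below the 32.7% of all genes. Of 8 tested genes of the mitochondrial genome, 4 were higher. The count was 2 without KO replicate 3 or WT replicate 3, 1 with KO replicate 1 alone, and 3 with RLE or upper-quartile scaling or DESeq2.

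Whether a difference was particular to Treg cells was tested as the effect of the KO label in Treg cells minus its mean effect in TH1, TH2 and TH17 cells of the same table. In this comparison the subset names stand for the culture condition of bulk libraries and not for a measured cell type. By this test 903 genes (6.50%) differed, 434 with a higher log2 fold change in Treg cells (3.12%) and 469 with a lower one (3.37%). Foxp3 was not among them. Its log2 fold changes in TH1, TH2 and TH17 cells were -2.74, -0.61 and -2.14, and the difference of Treg cells from their mean was -0.62 (SE 0.57, adjusted p = 0.589). Tbx21 (0.64), Ifng (-0.45), Eif5a (0.63) and Cd4 (-0.69) were not called either.

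Markers of other cell types moved with this comparison as well. A higher log2 fold change in Treg cells was called for 2 of 8 γδ T cell genes, 2 of 10 CD8 T and NK cell genes and 1 of 8 B cell genes tested, and a lower one for 1 of 13 basophil and mast cell genes (Cyp11a1) and 1 of 6 erythroid genes (Hbb-bt). No member of the CD4 T cell (13 tested), myeloid (16) or megakaryocyte and platelet (9) lists was called. Cd8a had a Treg difference of 2.57 (SE 0.50, adjusted p = 0.00185) and Klrk1, the activating receptor NKG2D of NK and CD8 T cells, of 1.63 (SE 0.34, adjusted p = 0.00355). Ighm, the heavy chain of IgM, differed by 1.56, Tcrg-C2 by 1.51 and Tcrg-C4, another constant region of the TCR gamma chain, by 1.26. Cd8a, Ighm and Tcrg-C4 were not called without KO replicates 2 and 3 (1.96, 1.31 and 1.16), Tcrg-C4 was not called without WT replicate 3 (0.96), and Cd8a, Klrk1, Ighm and Hbb-bt were not called against each other subset singly. The γδ T cell sum was 1402 to 1573 CPM in KO-labelled Treg libraries and 740.0 to 1178 CPM in the KO-labelled libraries of the other subsets, while the CD8 T and NK cell sum, 956 to 1143 CPM, lay within the 125 to 1553 CPM of those libraries. The part of these markers in the differences that follow was not tested.

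The cytokines Il10 and Il17a rose by a larger fold in Treg libraries than in those of the other subsets, from lower WT levels. In WT libraries Il10 averaged 1.11 CPM in Treg, 21.4 in TH1, 42.6 in TH2 and 8.81 in TH17 cells, and in KO-labelled libraries 92.8, 151, 306 and 18.2 CPM. Il17a averaged 0.432 CPM in WT and 94.5 CPM in KO-labelled Treg libraries, against 29.5 and 222 CPM in TH17 cells. Il10 rose by 2.82, 2.84 and 1.07 on the log2 scale in TH1, TH2 and TH17 cells, and the Treg difference was 4.07 (SE 0.41, adjusted p = 1.80e-06). For Il17a those values were 2.91, 3.97 and 2.90, and the difference was 4.50 (SE 0.82, adjusted p = 0.00121). For Il17f the difference was 3.46 (SE 0.60, adjusted p = 0.000769). Gata3 fell further in Treg cells, with a difference of -1.99 (SE 0.26, adjusted p = 3.74e-05), with -0.38, -0.57 and 0.57 in the other subsets. Icos rose in Treg cells and showed log2 fold changes of -0.67, -0.64 and -0.67 elsewhere, a difference of 1.91 (SE 0.23, adjusted p = 1.58e-05). Itgae differed by 1.55 (SE 0.37, adjusted p = 0.00963), with -1.16, -0.56 and 2.74 in TH1, TH2 and TH17 cells. This call was lost without KO replicate 2 (1.33, adjusted p = 0.0515) or WT replicate 2 (1.27, adjusted p = 0.0523). Ikzf2 rose less in Treg cells than elsewhere, where its log2 fold changes were 2.01, 1.82 and 3.57, a difference of -1.41 (SE 0.44, adjusted p = 0.0488). The Ikzf2 call was lost without any of KO replicates 1, 2 and 3 or WT replicates 1 and 3, with differences of -1.54 to -1.19 and adjusted p of 0.0657 to 0.161.

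**Figure D5:**
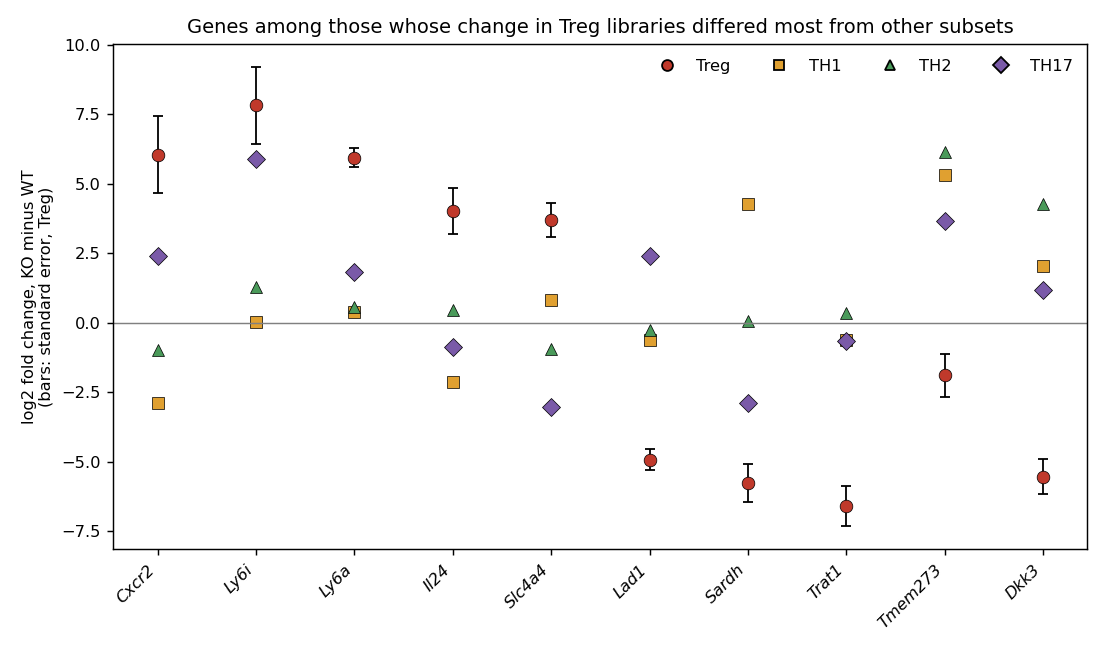
Log2 fold change, KO-labelled over WT, in Treg cells and in TH1, TH2 and TH17 cells for genes among those whose Treg effect differed most from the mean of the other subsets. Ly6a rose by 5.93 in Treg cells and by 0.40 to 1.82 elsewhere.

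Among the genes with the largest such differences, Ly6a, which encodes Sca-1, a surface antigen that interferons induce, was at 1354, 1133 and 834 CPM in KO-labelled and 20.2, 17.6 and 16.4 CPM in WT Treg libraries, a log2 fold change of 5.93 (SE 0.34, adjusted p = 5.20e-11). Its Treg difference was 5.00 (SE 0.35, adjusted p = 2.26e-08). Il24 (4.87) and the bicarbonate transporter Slc4a4 (4.76) also had larger log2 fold changes in Treg cells. These are differences between fold changes and not levels: Il24 averaged 65.6 CPM in KO-labelled Treg libraries and 1112 CPM in KO-labelled TH2 libraries. Cxcr2 (6.53) and Ly6i (5.43) also belong to this set, and both were lowest in KO replicate 1, as the myeloid sum was: Cxcr2, a neutrophil receptor, was at 0.663, 15.5 and 16 CPM in KO-labelled libraries. Ly6i lost its call when any of KO replicates 2 and 3 or WT replicates 1, 2 and 3 was left out, with differences of 4.65 to 6.13 and adjusted p of 0.0564 to 0.103. On the other side, Lad1, which encodes the filament protein ladinin, was at 1.88, 2.42 and 1.65 CPM in KO-labelled and 45.8, 69.2 and 67.9 CPM in WT libraries, and Sardh, sarcosine dehydrogenase, at 0.221, 1.01 and 0.206 against 20.1, 30.1 and 31 CPM. Trat1 had a Treg difference of -6.28 and showed -0.62, 0.34 and -0.67 in the other subsets. Dkk3, a secreted protein of the Dickkopf family, was at 0.442, 0 and 0.206 against 9.48, 11.1 and 10.5 CPM in Treg cells and had log2 fold changes of 2.05, 4.27 and 1.18 elsewhere. Tmem273 had the difference -6.93, and the call of its fall in Treg cells (-1.90) was lost when any one of the 6 libraries was left out, with log2 fold changes of -2.23 to -1.52 and adjusted p of 0.062 to 0.152.

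The series also holds Treg libraries labelled for a knockout of Odc, the enzyme that starts polyamine synthesis: 4 labelled KO and 4 WT, in a table of their own. Odc1 itself was not called in these libraries, with a log2 fold change of 0.20 (adjusted p = 0.282). The study deleted only part of its exons and the counts cover the whole gene, so this value cannot check the deletion. By immunoblot the study reports loss of the ODC protein, and it measured lower polyamine levels in these T cells after activation. There 1922 of 13839 genes tested were higher (13.9%) and 1396 lower (10.1%) by the same rule. Several genes moved the same way in both. Il10 rose by 4.34 (adjusted p = 6.14e-10) in the Odc KO-labelled libraries, Ifng by 3.63 (adjusted p = 8.99e-07), Tbx21 by 1.95 (adjusted p = 2.15e-05) and Eif5a by 1.16 (adjusted p = 1.66e-06) on the log2 scale. Ctla4 showed -1.96 (adjusted p = 0.000117) and Itgae 3.27 (adjusted p = 7.27e-10). Foxp3, Ikzf4 and Gata3, which fell here, were not called there: Foxp3 had a log2 fold change of -0.23 (adjusted p = 0.499), Ikzf4 of 0.18 (adjusted p = 0.351) and Gata3 of -0.64 (adjusted p = 0.00559), the last in the same direction as here but under the 2-fold threshold. Cd4 was lower by 0.71 on the log2 scale in the Odc KO-labelled libraries, against 4.65 here. Markers of several other cell types were higher there too: 8 of 8 γδ T cell genes, 12 of 13 CD8 T and NK cell genes, 11 of 12 B cell genes, 11 of 13 myeloid genes and 9 of 11 basophil and mast cell genes tested. Of 4 megakaryocyte and platelet genes tested, 1 was higher and 1 lower, and the 1 erythroid gene tested was lower. The part of other cell types in these values was not tested. Of the 100 Treg signature genes, which were chosen on WT libraries of that same table, 36 were lower and 19 higher (median log2 fold change -0.40). Whether the effects in the 2 tables differ was not tested, since the tables were counted and normalized separately.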

How the data were processed

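The counts were made by the authors and deposited as 1 table of whole-number reads per gene for each deficiency. Libraries were stranded TruSeq mRNA, sequenced on a HiSeq instrument, mapped to mm10 with STAR and counted with featureCounts. The submitters' processing notes also name deepTools and DESeq2. Versions, annotation release and the strand setting are not given in the sources used here, and antisense and paralogous reads may be shared. Symbols, positions and exon lengths came from GENCODE M21 (GRCm38), promoter sequences from RefSeq.

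All 24 libraries of the Dohh table (8 groups) were fitted in edgeR 4.0.16 (R 4.3.3): TMM, filterByExpr, robust quasi-likelihood test, two-sided, Benjamini-Hochberg over 13897 genes. The SE is the log2 fold change over the root of F. CPM use TMM-scaled library sizes. A gene with no read in a group was set against 3 counts over that group, and 1 to 3 reads gave an exact Poisson interval (95%). On simulated counts for the Treg comparison the fit recovered 67 of 80 genes changed by 1.5, 77 of 80 changed by 2 and 40 of 40 changed by 3 on the log2 scale, with 5 false calls among 13897 genes. For the comparison with the other subsets it recovered 62 of 80, 74 of 80 and 39 of 40, with 6 false calls. The simulation changed 200 genes. Recovery and false calls where 32.7% of genes are called, the share in the Treg comparison, were not tested.

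Named genes were 28 core genes, up to 4 called members of each list in each direction whose libraries did not overlap, the 10 largest increases and decreases of genes with at least 10 CPM, and the 6 largest differences from the other subsets in each direction. Members named to show that they were not called, members with smaller changes and the chromosome 14 run were chosen after their values were seen. Some genes that these rules name are not reported here. The genes, lists and tests were chosen with earlier results of these data known. Alternatives were RLE and upper-quartile scaling, DESeq2 1.42.0, other filters and thresholds, the 6 libraries alone, replicate blocks, and each library left out. Leaving out KO replicates 2 and 3 was added after seeing the data, and the remaining KO-labelled library was then assumed to vary like the other groups.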

Additional observations from a re-analysis of the deposited data

Results flagged for a closer look

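The effect of the KO label in Treg cells differed from its mean effect in TH1, TH2 and TH17 cells, by a test of that difference (edgeR, adjusted p below 0.05), for the genes that follow, which are from the core set and the largest differences in each direction, and Icos. The log2 fold change was higher in Treg cells for Cxcr2 by 6.53, Ly6i by 5.43, Ly6a by 5.00, Il24 by 4.87, Slc4a4 by 4.76, Il17a by 4.50, Il10 by 4.07, Il17f by 3.46, Icos by 1.91 and Itgae by 1.55. It was lower in Treg cells for Dkk3 with a difference of -8.03, Tmem273 with -6.93, Trat1 with -6.28, Sardh with -6.25, Lad1 with -5.43, Gata3 with -1.99 and Ikzf2 with -1.41. Of these, Cxcr2, Dkk3, Ikzf2, Itgae, Ly6i, Sardh and Tmem273 did not pass the test against each of the other subsets taken singly. Cxcr2 and Ly6i were lowest in KO replicate 1, where the myeloid marker sum was 474 CPM against 4799 and 5373 CPM in the other KO-labelled libraries, and the part of myeloid cells in their values was not tested.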

How the results depend on the processing

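Scaling, and which libraries were fitted, moved the split of the calls by direction: upper-quartile factors gave 2268 higher and 2317 lower, against 2438 and 2111, and the 6 libraries alone 2015 and 2030. The median log2 fold change of all genes was 0.025 with TMM, 0 with RLE, -0.041 with upper-quartile factors and -0.001 with DESeq2, and RLE, DESeq2, upper-quartile factors and the 6-library fit shared 98.5%, 97.7%, 96.3% and 85.8% of the 4549 calls. Thresholds moved the counts. A mean count of at least 50 left 2923 calls (1522 higher, 1401 lower), a test against a 2-fold change (glmTreat) 2479 (1333 and 1146), and adjusted p alone 7415 (3946 and 3469). In the fixed lists glmTreat called 186 members against 282. With at most 50 genes in a signature, 37 of 45 Treg genes tested were lower, against 61 of 86. Leaving out 1 library gave 4093 to 4689 calls, 2041 to 2551 higher and 2052 to 2268 lower, 260 to 291 list members, and 58 to 66 Treg signature genes lower. Without KO replicates 2 and 3, 1523 genes were higher and 63.4% of the calls were shared. In that fit 42 named genes lost their call with the sign kept. Il4 also lost its call, with a changed sign (log2 fold change -0.044).

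The comparison with the other subsets was less stable. It called 903 genes, 689 to 814 with 1 library left out (280 to 409 higher, 400 to 449 lower; 280 without WT replicate 2 and 289 without WT replicate 3), 447 without KO replicates 2 and 3 (215 and 232), and 174 against each other subset singly (86 and 88).

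Correlations of deviations between KO-labelled and WT Treg libraries of the same replicate number were -0.007, -0.026 and 0.06, and -0.085 to 0.073 for different numbers. With 3 libraries in each group these values cannot exclude a pairing. WT replicate 1 had no read of 4 Y-linked genes in any subset, unlike WT replicates 2 and 3, and the main fit has no term for the replicate number. A replicate block gave 4565 calls, or 4004 with the 6 libraries alone, and 914 (964 within genotype) in the comparison with other subsets.

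Of 208 named genes, 147 kept direction and call under every alternative that tested them (169 passed the filter at a mean count of 50 and 189 that of the 6-library fits), and 3 changed sign in their log2 fold change: Il2ra (-0.014 to 0.28 with 1 library left out), Il5 (-1.06 to 0.72) and Il4 (-0.044 without KO replicates 2 and 3). The difference from other subsets changed sign with 1 library left out for Dohh (-0.0064 to 0.22), Dhps (-0.078 to 0.22), Ctla4 (-0.30 to 0.14), Il13 (-0.13 to 0.41), Tnf (-0.0072 to 0.35) and Kat2a (-0.23 to 0.025), and without KO replicates 2 and 3 for Dhps (-0.25), Ctla4 (0.17) and Tnf (-0.025). No value with a changed sign was called, and the cause was not tested. At these depths, genes under 0.226 to 0.365 CPM cannot be told from absent.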
